A study of Homo sapiens with 6 samples.

Results

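The genes described here encode 10 microRNA processing and silencing factors, AGO1, AGO2, AGO3, DICER1, DROSHA, DGCR8, XPO5, TNRC6A, TNRC6B and TNRC6C. They were chosen by name, and a cluster of crosslinked reads counted for a gene when 1 nt or more of it lay on an exon of that gene, on its strand, in GENCODE release 44. The 10 genes were among 9353 protein-coding genes with an exon cluster in an IGF2BP3 library, and they held 603 of the 244645 clusters in all libraries. The clusters came from infrared PAR-CLIP of endogenous IGF2BP3 in HCT116, a human colorectal carcinoma cell line. In PAR-CLIP, cells take up 4-thiouridine, UV light links it to the bound protein, and the linked base is sequenced as C rather than T, so T-to-C conversions mark the contact. All cells had the genotype label Tet-OsTIR1-PURO and were given 100 µM 4-thiouridine over 15 h. Each of the 6 conditions had 1 library, and the RNase concentration is written as U/µL in the lysate, a slash, and U/µL on the beads. The IGF2BP3 antibody was used with 3 treatments by RNase I (0.05/0.05, 0.1/0.025 and 0.05/0.025) and 2 by RNase T1 (1/1 and 0.25/0.25), and control IgG with RNase I at 0.1/0.025. Electroelution was used for RNase I 0.05/0.05 and RNase T1 1/1 and crushed gel for the other IGF2BP3 libraries, of which the RNase I 0.1/0.025 library is listed in that part of the methods with another in-lysate concentration, so dose and gel extraction cannot be told apart within either enzyme across that divide. Per the study, the antibody also recognizes IGF2BP2 in part, so the clusters cannot be assigned to IGF2BP3 alone. No input RNA was analysed here, so more bound sites per transcript and more transcript cannot be told apart at any gene.

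MicroRNAs are cut from long nuclear transcripts by DROSHA with its RNA-binding partner DGCR8, carried to the cytoplasm by the exportin XPO5 and cut again by DICER1. The short RNA is then loaded into an Argonaute protein (AGO), which pairs with target mRNAs, mostly in the 3′UTR, and binds a TNRC6 protein that recruits the enzymes of deadenylation and decay. IGF2BP3 is an mRNA-binding protein that is made in many tumors and is known for binding 3′UTRs and for protecting some target mRNAs of let-7, a microRNA family.

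The sequences below show what the clusters on 9 of the genes looked like in the RNA. For each gene, the site found in the most IGF2BP3 libraries was taken, then its RNase T1 1/1 cluster with the most reads, or, for DGCR8 and the 3′UTR of DICER1, its RNase I 0.05/0.05 cluster. Clusters longer than 30 nt are shown by 30 nt that include the cluster's mode, the position of its strongest crosslink signal. Coordinates are those of GRCh38, the letters are the transcript strand from 5′ to 3′, and capitals mark the tetramers CATT, CAGT and CATA, the pentamer TGGAC and the let-7 seed match CTACCTC, where present.
DROSHA coding sequence, chr5:31421295-31421315 (-): acttattCATTCATTtcccag
DGCR8 3′UTR, chr22:20111374-20111403 (+): tttttctgtcaggaaaacaatgttggcctg
XPO5 3′UTR, chr6:43522915-43522944 (-): gttacttttctcaaaggcCATTtccaaaag
DICER1 3′UTR, chr14:95086307-95086336 (-): atgctgcagaaatttgCAGTctgcacctta
DICER1 coding sequence, chr14:95103736-95103763 (-): gcaaccaaCTACCTCATAttcCATTcag
AGO1 3′UTR, chr1:35922129-35922158 (+): gtttgtgttctctccttttctctctttgcc
AGO3 3′UTR, chr1:36056442-36056471 (+): aatataaaatatggcaaactagaattctac
TNRC6A 3′UTR, chr16:24823998-24824026 (+): gtatctactctatttacactcccaaatag
TNRC6B 3′UTR, chr22:40333484-40333513 (+): gttctccacacaatacctggagctctcaac
TNRC6C 3′UTR, chr17:78105427-78105456 (+): tCATTtttttatcccaaaaaatatttttta
The second DICER1 sequence is an RNase T1 1/1 cluster over a let-7 seed match, in which the match and CATA share a C. RNase T1 cuts RNA after G and RNase I after any base. The TNRC6A sequence, a whole RNase T1 cluster, held 2 G bases, at its ends.

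Depth is given as the sum of cluster reads, which is not the library size. For RNase I it was 2362467 at 0.05/0.05, 803490 at 0.1/0.025 and 670712 at 0.05/0.025, and for RNase T1 1157194 at 1/1 and 182448 at 0.25/0.25. Levels are cluster reads scaled to a library sum of 1000000 (CPM), and 95% intervals are exact Poisson or binomial and cover counting error only. The IgG library held 324 cluster reads and 0 on the 10 genes. As 3 reads, the limit that a count of 0 allows, corresponded there to 9259 CPM, this absence set no useful bound on background. The smallest cluster on these genes had 3 reads, and reads spread thinly over several sites form no cluster, the more so in a shallow library. A gene is therefore given as having no cluster, not as unbound, and each limit from a count of 0 refers to reads in clusters. Of the colon epithelium markers EPCAM, KRT8, KRT18, CDH1, CDX2 and VIL1, 4 of 6 were called a target in some library. Of all protein-coding genes with a cluster, 63.3% were. CDX2 had a cluster in 1 library and VIL1 had none. Of the markers of other cells, PTPRC, CD3E, PECAM1, COL1A1, COL3A1 and ALB, 0 of 6 had a cluster.

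AGO2 carried the largest share of the reads, and TNRC6B and TNRC6A followed by mean level over the 5 IGF2BP3 libraries. The genes of the processing steps had means of 3.88 (DROSHA) to 33.9 CPM (DICER1), a range that also held TNRC6C at 24.3. Per kb of 3′UTR the XPO5 mean, 13.8 CPM, lay above those of AGO1 (5.07), AGO3 (2.48) and TNRC6C (5.23). It lay below those of AGO2 (69.2), TNRC6A (34.8) and TNRC6B (19.1). A gene was called a target, after the study's criterion, when 1 or more of its clusters passed both 10 CPM and 0.5 T-to-C conversions per read. The CPM here is relative to cluster reads and the study does not state its denominator, so this threshold may differ from the study's. Of the 10 genes, 6 were targets with RNase I 0.05/0.05, against 46.9% of the 9353 protein-coding genes. They were AGO1, AGO2, AGO3, XPO5, TNRC6A and TNRC6B. With RNase I 0.1/0.025, 5 were targets (45.6% of all genes), namely AGO2, DGCR8, XPO5, TNRC6A and TNRC6B. At RNase I 0.05/0.025 there were 5 targets (47.1% of all genes), with AGO1 in place of DGCR8. With RNase T1 1/1, 6 were targets (42.1% of all genes), namely AGO2, AGO3, DICER1, TNRC6A, TNRC6B and TNRC6C. With RNase T1 0.25/0.25, 2 were targets (29.3% of all genes), AGO2 and TNRC6B. These shares lay near those of all genes, and nothing is read from them about the group. Among the 1365 genes whose 3′UTR was at least as long as the median of the 10, the shares called were 53.2%, 51.4%, 51.8%, 59.9% and 38.2% in the same order of libraries. Across libraries, 9 of the 10 were targets in at least 1 library (63.3% of all genes and 72.3% of those with long 3′UTRs) and 2, AGO2 and TNRC6B, in all 5 (21.2% and 30.3%). DROSHA was a target in none.

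Several calls turned on the thresholds. Of the 50 pairs of a gene and a library, 24 met both criteria, 14 had clusters but none above 10 CPM, 9 had no cluster, and 3 had a cluster above 10 CPM with no more than 0.5 conversions per read. These 3 were AGO1 with RNase T1 1/1 and DICER1 and TNRC6C with RNase T1 0.25/0.25. The largest AGO3 cluster with RNase I 0.05/0.05 lay just inside, at 10.6 CPM and 0.52 conversions per read, and the largest AGO1 cluster with RNase I 0.1/0.025 lay just outside, at 9.96 CPM and 0.50. In the order of libraries used so far, 10 CPM corresponded to 23.6, 8.03, 6.71, 11.6 and 1.82 reads, so that in the last library every cluster passed.

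**Figure D1:**
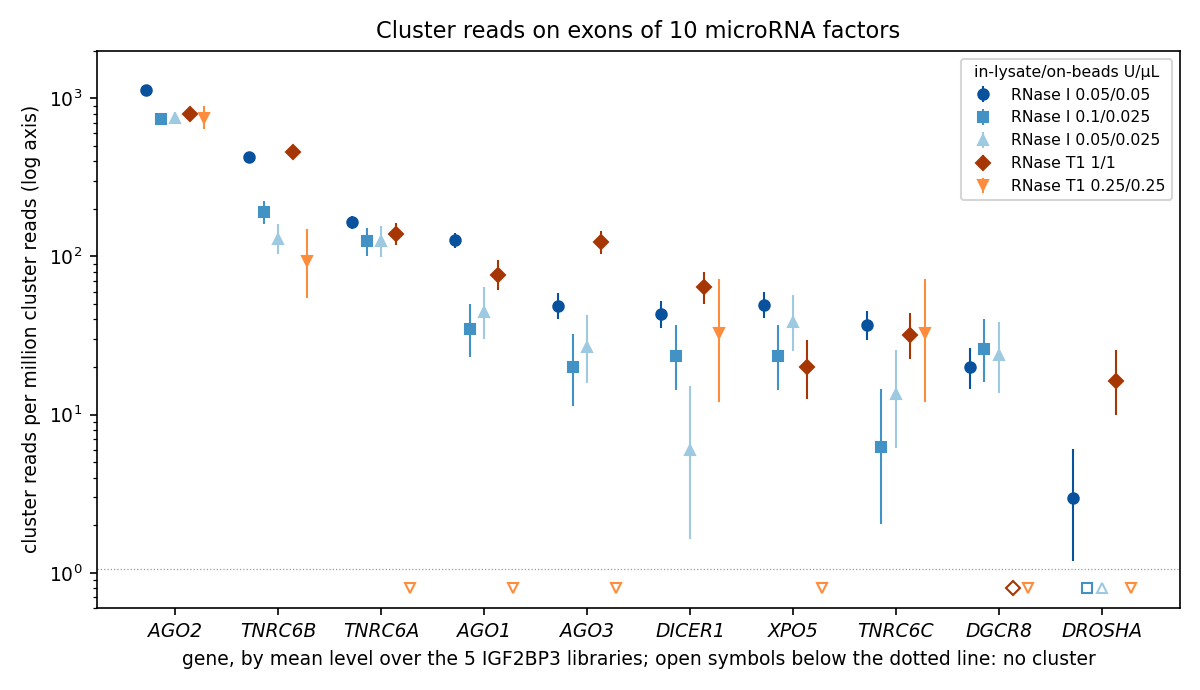
Cluster reads in CPM (log axis) of the 10 genes in the 5 IGF2BP3 libraries, with exact 95% Poisson intervals; open symbols below the dotted line stand for no cluster. AGO2 lay at 738 to 1122 CPM, above all values of the other 9 genes, whose ranges overlapped those of their neighbors.

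The nuclear enzyme pair had the lowest mean levels over the 5 IGF2BP3 libraries, though DGCR8 lay above XPO5, DICER1, AGO3 and TNRC6C with RNase I 0.1/0.025. DROSHA, the RNase that releases the hairpin precursor, had 2.96 CPM with RNase I 0.05/0.05 (7 reads) and 16.4 CPM with RNase T1 1/1 (19 reads), and no cluster in the other IGF2BP3 libraries. All 4 of its clusters lay in the coding sequence and 0 in its 3′UTR, which is 938 nt long. The RNase I cluster and an RNase T1 cluster, the DROSHA sequence shown above, formed a single site of 12 reads. DGCR8, which binds the primary transcript, had 19.9, 26.1 and 23.9 CPM with RNase I 0.05/0.05, 0.1/0.025 and 0.05/0.025 (47, 21 and 16 reads) and no cluster with RNase T1. The RNase I intervals overlapped one another. With RNase T1 1/1 the exact interval from the count of 0 reached 3.19 CPM for DGCR8, below the lower end of each RNase I interval, the lowest of which was 13.6. All 10 DGCR8 clusters were in its 3′UTR and merged into 6 sites. Adjoining sites at nt 1258 to 1364 and nt 1365 to 1456 after the stop codon held 34 and 28 of its 84 reads, and each was found in all 3 RNase I libraries.

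XPO5, the exportin of precursor hairpins, had 49.5 CPM with RNase I 0.05/0.05 (117 reads), 23.6 with 0.1/0.025 (19 reads), 38.8 with 0.05/0.025 (26 reads) and 19.9 with RNase T1 1/1 (23 reads). With RNase T1 0.25/0.25 it had no cluster. The level was 2.49-fold higher with RNase I 0.05/0.05 than with RNase T1 1/1 (95% interval 1.58 to 4.08), whereas the median ratio over the 7106 genes with clusters in both libraries was 0.97. A single site, chr6:43522853-43523092 at nt 776 to 1015 of the 3′UTR, held 55.7% of its reads and was found in 4 libraries, with 48, 19, 26 and 10 reads in the order above. In the RNase I 0.1/0.025 and 0.05/0.025 libraries it held all XPO5 reads. The XPO5 sequence shown above comes from it.

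DICER1, the cytoplasmic RNase that makes the mature duplex, had 43.2 CPM with RNase I 0.05/0.05, 23.6 with 0.1/0.025, 5.96 with 0.05/0.025, 63.9 with RNase T1 1/1 and 32.9 with RNase T1 0.25/0.25. These rested on 102, 19, 4, 74 and 6 reads, and the interval at RNase I 0.05/0.025 ran from 1.62 to 15.3 CPM. Summed over libraries, DICER1 had 14 clusters in the coding sequence (5769 nt) against 10 in the 3′UTR (4270 nt), with 112 and 93 reads. Without regard to length, coding clusters were the more numerous with RNase I, at 8 against 3, 2 against 1 and 1 against 0 in the order above. With RNase T1 they were the fewer, at 3 against 5 for 1/1 and 0 against 1 for 0.25/0.25. These counts are small, and the coding sequence is longer than the 3′UTR. AGO2 had 12 coding clusters (2580 nt) against 224 in the 3′UTR (11888 nt). DICER1 was a target with RNase T1 1/1 only, through a cluster of 22 reads and 0.55 conversions per read in the 3′UTR. The DICER1 3′UTR reads with RNase I 0.05/0.05, with RNase I 0.1/0.025 and with RNase T1 0.25/0.25 all lay in the last of 5 equal parts of its 3′UTR. That part held 23.4% of those with RNase T1 1/1. The site at nt 4126 to 4213 accounted for 19, 6 and 6 reads in the former 3 libraries, in that order.

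The let-7 seed match CTACCTC was searched on the transcript strand of the canonical coding sequences and 3′UTRs. The letters pair with bases 2 to 8, in capitals, of let-7a as given by RefSeq for GRCh38.p14.
hsa-let-7a-5p: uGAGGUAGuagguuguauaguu
There were 12 matches in 6 of the genes, 8 in coding sequence and 4 in 3′UTRs, and 4 of them were in the DICER1 coding sequence. A cluster lay over 2 of the 12 matches. At chr14:95103749-95103755 in DICER1, 17 reads with RNase I 0.05/0.05 had 0.76 conversions per read and 10 reads with RNase T1 1/1 had 0.50, which is the DICER1 coding sequence shown above. At nt 5397 of the AGO2 3′UTR, clusters of 61 reads with RNase I 0.05/0.05 and 12 reads with RNase I 0.1/0.025 lay over the match, with 0.62 and 0.75 conversions per read. Within 50 nt there was a cluster at 5 of the 12. The heptamer was in 0.78% of the clusters on the 10 genes with RNase I 0.05/0.05 (2 of 258) and in 0.65% of all exon clusters of that library.

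AGO2, the Argonaute protein that can cut its target, had 1122 CPM with RNase I 0.05/0.05, 738 with 0.1/0.025, 756 with 0.05/0.025, 801 with RNase T1 1/1 and 756 with RNase T1 0.25/0.25. These were 2651, 593, 507, 927 and 138 reads. The RNase I 0.05/0.05 library stood above the other 4, whose intervals overlapped, and the highest and lowest level differed 1.52-fold. With a mean of 835 ± 162 CPM (SD over the 5 libraries, which differ in RNase), AGO2 ranked 129 of 9353 genes. It held 55.1%, 62.2%, 64.9%, 46.3% and 82.6% of the reads on the 10 genes in the same order. In the 3′UTR, at chr8:140520156-140532043 on the minus strand and 11888 nt long, the level per length was 91.5, 60.4, 63.0, 67.4 and 63.6 CPM per kb.

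AGO2 reads were spread over the whole 3′UTR. With RNase I 0.05/0.05 the 5 equal parts of the 3′UTR, from the stop codon on, held 18.3%, 28.3%, 30.4%, 14.2% and 8.80% of the reads, and with RNase T1 1/1 11.5%, 27.4%, 24.3%, 17.7% and 19.1%. The AGO2 clusters merged into 69 sites, 33 of them found with both enzymes. Of the 283 sites on the 10 genes, 8 were found in all 5 IGF2BP3 libraries, and all 8 were in the AGO2 3′UTR. When clusters had to overlap each other by at least 50% of both lengths, 0 sites were found in all 5. The site with the most reads, 707, lay at nt 5725 to 6051 after the stop codon (chr8:140525993-140526319). It had 140, 124, 99.9, 162 and 115 CPM in the same order of libraries. Another of the 8, at nt 4331 to 4643, had 82.1, 54.8, 71.6, 4.32 and 65.8 CPM, so that the RNase T1 1/1 library lay far below the others there. At nt 8500 to 8634 the same library lay highest, at 66.5 CPM against 12.3, 16.2, 23.9 and 43.8 in the others.

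AGO1 and AGO3, the neighboring paralogs on chromosome 1, had far less. AGO1 had 127, 34.8, 44.7 and 76.9 CPM with RNase I 0.05/0.05, 0.1/0.025, 0.05/0.025 and RNase T1 1/1 (299, 28, 30 and 89 reads), and AGO3 had 48.7, 19.9, 26.8 and 123 CPM (115, 16, 18 and 142 reads). Neither had a cluster with RNase T1 0.25/0.25, where 3 reads would have been 16.4 CPM. AGO1 was highest with RNase I 0.05/0.05, 1.65-fold over RNase T1 1/1 (95% interval 1.29 to 2.11), and AGO3 was highest with RNase T1 1/1, with a ratio of 0.40 (0.31 to 0.51).

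The 3′UTRs of AGO1 and AGO3 are long as well, 10925 and 16755 nt. Per kb of 3′UTR, AGO2 had 8.28 times the reads of AGO1 with RNase I 0.05/0.05 (95% interval 7.33 to 9.40), 18.9 times with 0.1/0.025 (12.96 to 28.75), 15.4 times with 0.05/0.025 (10.6 to 23.0) and 9.57 times with RNase T1 1/1 (7.69 to 12.04). Over AGO3 the ratio was 32.3 (26.8 to 39.4), 50.8 (31.0 to 89.5), 59.0 (33.5 to 115) and 9.20 (7.70 to 11.1). With RNase T1 0.25/0.25 AGO1 and AGO3 had 0 cluster reads in the 3′UTR. With the absent paralog set at 3 reads, AGO2 had 42.3 times the reads per kb of AGO1 and 64.8 times those of AGO3. The lower 95% limits of the ratios, from the counts with 0 reads, were 33.9 and 52.0. AGO2 was thus higher per annotated length than both in every library. Which 3′UTR lengths the cells expressed was not tested.

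Reads on AGO1 and AGO3 were placed unevenly along the 3′UTR. In the 3 RNase I libraries the part nearest the AGO1 stop codon, again of 5 equal parts, held 57.5%, 46.4% and 60.0% of the reads, whereas with RNase T1 1/1 it held 22.5% and the middle part 39.3%. For AGO3 the part nearest the stop codon held 93.3%, 100% and 100% with RNase I and 54.9% with RNase T1 1/1. The AGO3 site in the most libraries lay at nt 697 to 790, with 11, 4, 6 and 20 reads, and that of AGO1 at nt 2419 to 2596, with 35, 10, 5 and 8 reads, both shown by sequence above. AGO4, the remaining Argonaute gene, had no cluster in any library, with a 3′UTR of 4285 nt.

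**Figure D2:**
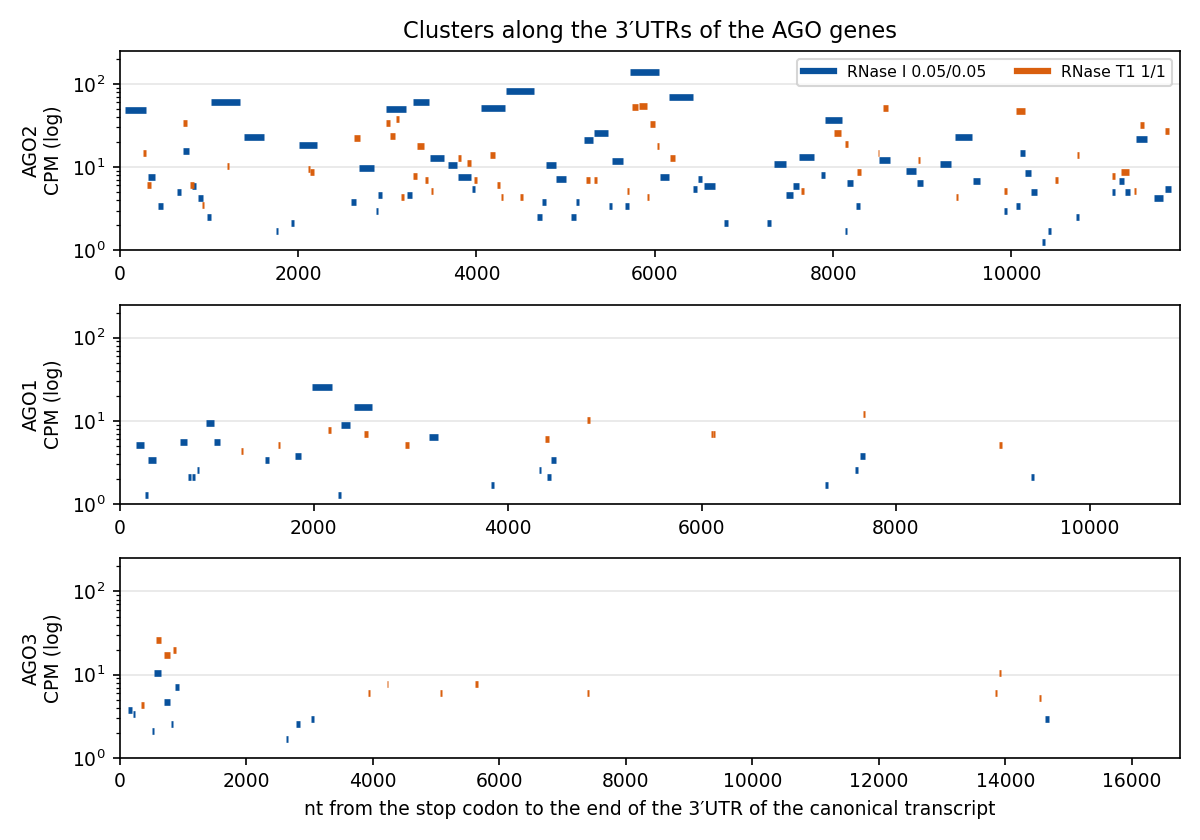
Clusters along the 3′UTRs of AGO2, AGO1 and AGO3 in the RNase I 0.05/0.05 (blue) and RNase T1 1/1 (orange) libraries; each bar spans a cluster by nt from the stop codon, and its height is the cluster's CPM on a log axis. Clusters cover AGO2 from end to end, those of AGO3 with RNase I lie mostly near the stop codon, and AGO1 lies between.

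The TNRC6 genes encode the scaffold proteins that bind Argonaute and recruit the deadenylases. TNRC6A had 164 CPM with RNase I 0.05/0.05, 124 with 0.1/0.025, 125 with 0.05/0.025 and 139 with RNase T1 1/1, with overlapping intervals, and no cluster with RNase T1 0.25/0.25. These were 388, 100, 84 and 161 reads. The smallest cluster on the 10 genes in the RNase T1 0.25/0.25 library had 5 reads, which is 27.4 CPM. With RNase T1 1/1 the TNRC6A reads lay in 14 clusters, of which the largest held 55 of the 161 reads, at 47.5 CPM.

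TNRC6B had 423 CPM with RNase I 0.05/0.05, 190 with 0.1/0.025, 130 with 0.05/0.025, 457 with RNase T1 1/1 and 93.2 with RNase T1 0.25/0.25 (999, 153, 87, 529 and 17 reads). The electroeluted libraries, RNase I 0.05/0.05 and RNase T1 1/1, were both high and the 3 crushed-gel libraries were low. The ratio of RNase I 0.05/0.05 to 0.05/0.025 was 3.26 (95% interval 2.62 to 4.11), against a median of 1.14 over 5972 genes, and that of RNase T1 1/1 to 0.25/0.25 was 4.91 (3.03 to 8.49), against a median of 1.04 over 3292 genes. Coverage of its 3′UTR fell beside it, from 34.4% to 4.83% with RNase I and from 11.9% to 0.53% with RNase T1. Between these RNase I libraries AGO1 differed 2.83-fold (1.94 to 4.27), TNRC6C 2.74-fold (1.38 to 6.20), AGO3 1.81-fold (1.098 to 3.17), AGO2 1.48-fold (1.35 to 1.64), TNRC6A 1.31-fold (1.03 to 1.68) and DICER1 7.24-fold (2.74 to 27.1, from 102 and 4 reads). The intervals of DGCR8, with a ratio of 0.83 (0.46 to 1.58), and XPO5, with 1.28 (0.83 to 2.04), included 1. The crushed-gel libraries were also the shallower ones, and the part of depth in this difference was not tested. Between the electroeluted libraries the TNRC6B ratio was 0.93 (0.83 to 1.03).

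TNRC6C had 36.8, 6.22, 13.4, 32.0 and 32.9 CPM in the order of libraries given for TNRC6B, from 87, 5, 9, 37 and 6 reads. The RNase I 0.05/0.05 interval, 29.5 to 45.4 CPM, lay above those of the other RNase I libraries and overlapped those of RNase T1. Because the 3′UTRs differ in length, 2411 nt in TNRC6A, 12567 nt in TNRC6B and 3977 nt in TNRC6C, the order changed per length. TNRC6A had 1.61 times the 3′UTR reads per kb of TNRC6B with RNase I 0.05/0.05 (1.40 to 1.84), 2.83 times with 0.1/0.025 (2.11 to 3.76), 3.77 times with 0.05/0.025 (2.68 to 5.28) and 1.40 times with RNase T1 1/1 (1.14 to 1.70). With RNase T1 0.25/0.25 TNRC6A had 0 reads and TNRC6B 17. TNRC6B had 6.27 times the reads per kb of TNRC6C with RNase I 0.05/0.05 (4.66 to 8.62), 8.99 times with 0.1/0.025 (3.76 to 28.1), 3.06 times with 0.05/0.025 (1.54 to 6.91) and 4.08 times with RNase T1 1/1 (2.92 to 5.87). In the RNase T1 0.25/0.25 library the ratio was 0.90 (0.34 to 2.78), from 17 and 6 reads, and no order was detectable.

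The 3 genes differed in where the reads lay. The TNRC6A site with the most reads, 187, was at nt 78 to 273 after the stop codon, with 89, 27, 16 and 55 reads in the 4 libraries with clusters, and the TNRC6A sequence above is its RNase T1 cluster. TNRC6A had 24 coding clusters beside 38 in the 3′UTR. A coding site at chr16:24805058-24805151 was found in the same 4 libraries, with 14, 14, 6 and 5 reads. TNRC6B reads leaned to the far end, with the last of 5 equal parts holding 33.2%, 57.0%, 41.4% and 40.04% and the part before it 35.7%, 21.8%, 36.8% and 27.3% in these libraries. Its site with the most reads, 164, was at nt 10092 to 10435. With RNase T1 0.25/0.25, 12 of the 17 TNRC6B reads lay at nt 5899 to 6039, a site also found in 3 other libraries. TNRC6C had no 3′UTR cluster in the last 2 of 5 equal parts in any library, and its site in the most libraries was at nt 530 to 615.

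**Figure D3:**
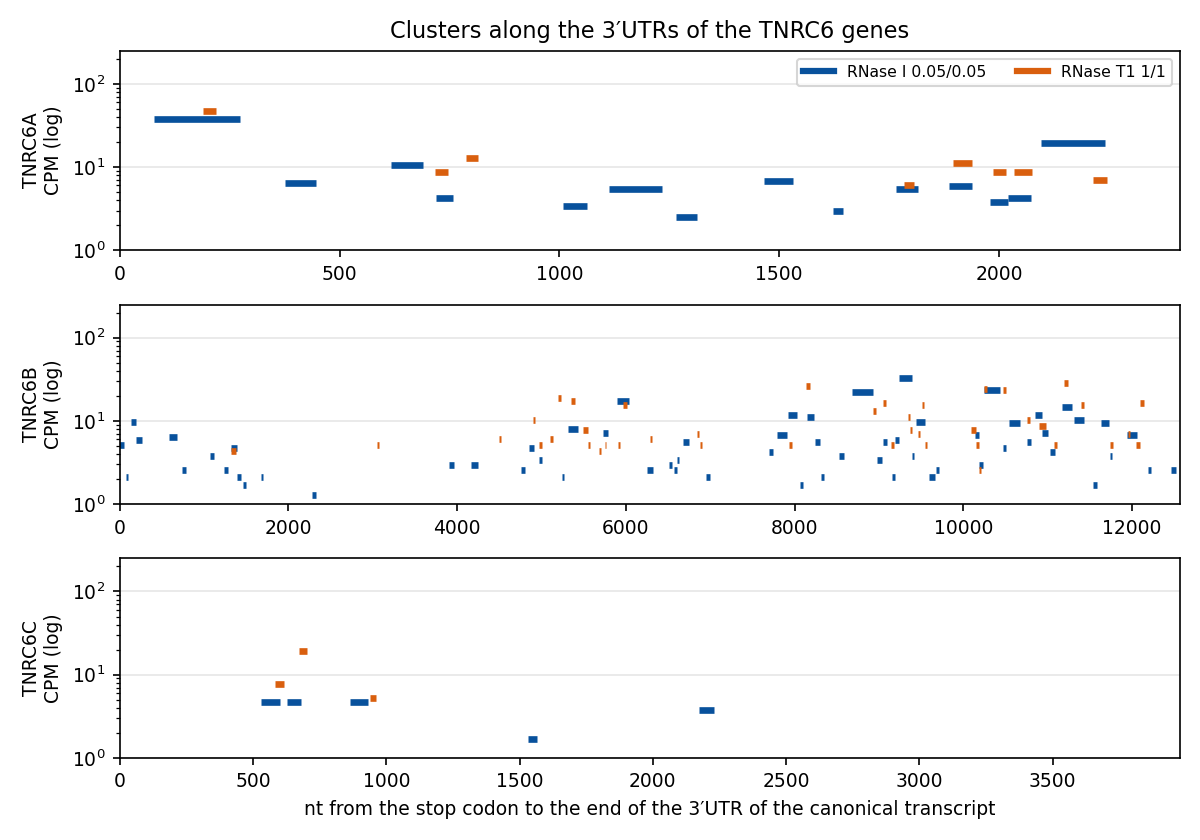
Clusters along the 3′UTRs of TNRC6A, TNRC6B and TNRC6C in the RNase I 0.05/0.05 (blue) and RNase T1 1/1 (orange) libraries; bars span clusters by nt from the stop codon, and height is CPM on a log axis. TNRC6B clusters gather toward the far end, TNRC6C clusters lie between nt 530 and nt 2228 of 3977, and the TNRC6A maximum lies at nt 78 to 273.

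Over the 10 genes, 3′UTR clusters held 90.8%, 93.4%, 95.4%, 92.8% and 100% of the reads in the order RNase I 0.05/0.05, 0.1/0.025, 0.05/0.025, RNase T1 1/1 and 0.25/0.25, counted on the canonical transcript. Over all protein-coding genes the shares were 78.5%, 80.5%, 79.2%, 85.3% and 85.7%. AGO2 alone gave 4713 of the 3′UTR reads. Coding clusters were most numerous on TNRC6A, with 24, followed by TNRC6B with 17, DICER1 with 14 and AGO2 with 12.

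The canonical 3′UTR was covered by clusters to very different degrees. AGO2 was covered to 61.9% with RNase I 0.05/0.05, 26.0% with 0.1/0.025, 23.7% with 0.05/0.025, 17.9% with RNase T1 1/1 and 5.85% with RNase T1 0.25/0.25. TNRC6A was covered to 42.5%, 21.2%, 19.4% and 10.5% in the first 4 of these, and TNRC6B to 34.4%, 8.90%, 4.83% and 11.9%. At the low end, AGO3 was covered to 3.95% with RNase I 0.05/0.05 and 2.93% with RNase T1 1/1. Of the 8 genes covered in both electroeluted libraries, 7 were covered more broadly with RNase I than with RNase T1, DICER1 being the exception at 4.22% against 4.57%. RNase I was broader in 94.7% of all such genes. Over the 3′UTRs of all coding transcripts together RNase I was broader in 8 of the 8 genes. The RNase I 0.1/0.025 library, with fewer reads than RNase T1 1/1, was broader in 3 of 8, beside 69.5% of all genes, and RNase I 0.05/0.025 in 4 of 7, beside 60.0%.

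**Figure D4:**
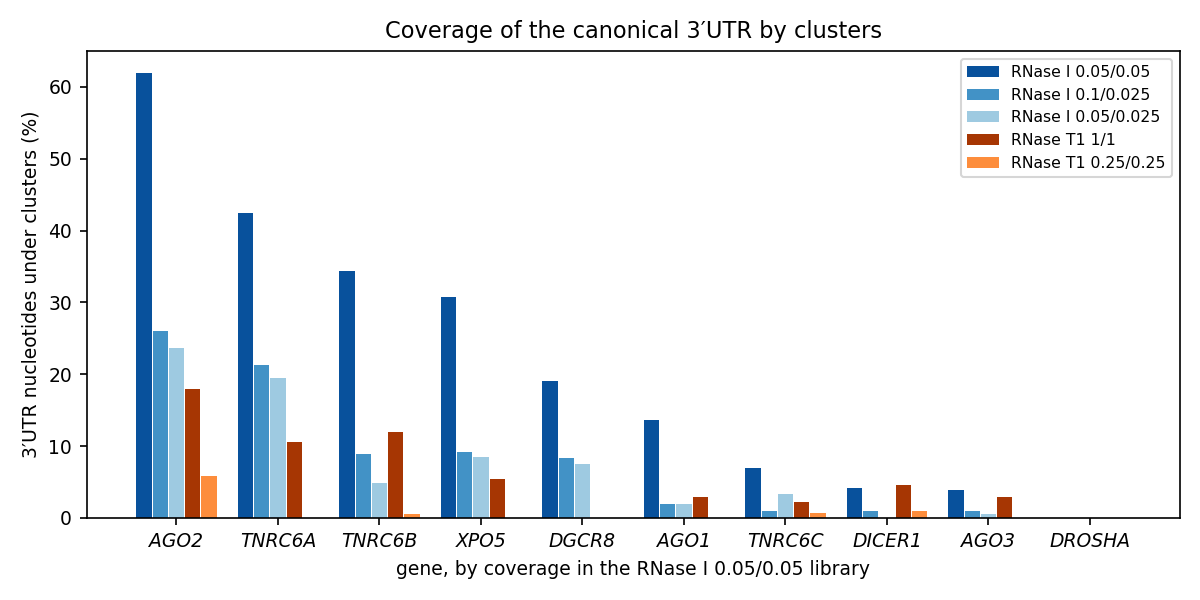
Percentage of the canonical 3′UTR nucleotides of each gene under clusters in the 5 IGF2BP3 libraries, with 1 bar per library. RNase I 0.05/0.05 bars are the highest except at DICER1, and DROSHA has none.

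The clusters merged into 283 sites, of which 86 were found with both enzymes, 156 in RNase I libraries alone and 41 in RNase T1 libraries alone. A single library held 164 of the sites, and 62 were found in 3 or more. Of AGO2 sites 47.8% were found with both enzymes, of TNRC6A sites 37.9%, of TNRC6B sites 32.9%, of AGO3 sites 13.6% and of AGO1 sites 11.8%. The shares were 33.3% for DROSHA, 29.4% for DICER1, 18.2% for TNRC6C, 7.69% for XPO5 and 0% for DGCR8. The same shares were not computed over all genes. RNase I had 3 libraries against 2 with RNase T1, and summed reads ran from 4816 on AGO2 to 26 on DROSHA. Nothing is therefore read from these site counts about the genes or the enzymes. Of the 153 RNase T1 1/1 clusters, 71.9% overlapped an RNase I 0.05/0.05 cluster (95% Wilson interval 64.3% to 78.4%), beside 76.5% of all exon clusters. With RNase I 0.05/0.025 the overlap was 26.8% (20.4% to 34.3%), beside 43.99% of all exon clusters.

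Clusters with RNase T1 were shorter, with a median of 32 nt at 1/1 against 57 nt with RNase I 0.05/0.05, and 97.4% of them ended in G, against 14.7%. Over all exon clusters these shares were 94.8% and 13.4%. CATT was in 37.6%, 40.6%, 38.7%, 28.1% and 23.8% of the clusters on the 10 genes in the same order of libraries, and in 38.8%, 40.9%, 40.2%, 35.0% and 39.5% of all exon clusters. Each of the latter lay within the 95% Wilson interval of the former. CAGT was in 32.9%, 36.5%, 29.3%, 10.5% and 33.3%, against 34.3%, 34.7%, 33.7%, 11.7% and 18.6% over all exons. The RNase T1 0.25/0.25 share rested on 7 of 21 clusters. Its 95% Wilson interval, 17.2% to 54.6%, included the 18.6% of all exon clusters and lay just above that of the 1/1 share, 6.54% to 16.3%. Over all exon clusters the share was likewise higher at 0.25/0.25 than at 1/1. Any of the 5 motifs, searched on the transcript strand, was in 69.4%, 71.9%, 58.7%, 52.9% and 66.7%, against 67.4%, 69.6%, 68.6%, 55.7% and 63.4%.

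Conversions per read over the 10 genes were 0.66, 0.70 and 0.66 with RNase I 0.05/0.05, 0.1/0.025 and 0.05/0.025 and 0.55 and 0.50 with RNase T1 1/1 and 0.25/0.25. Over all exon clusters they were 0.64, 0.65, 0.60, 0.51 and 0.55. With RNase T1 1/1 each of the 9 genes with clusters in both libraries had fewer conversions per read than with RNase I 0.05/0.05, as did 78.9% of the 7106 protein-coding genes. For AGO2 the values were 0.66 and 0.53, for TNRC6B 0.67 and 0.57, for TNRC6A 0.64 and 0.55, and for DICER1 0.74 and 0.62. The converted share of all T was 8.41% (95% Wilson interval 8.14% to 8.70%) with RNase I 0.05/0.05 and 6.13% (5.78% to 6.49%) with RNase T1 1/1 over the 10 genes. DGCR8 with RNase I 0.05/0.025 had the most conversions per read of the 10 genes, 1.00, from 16 reads.

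**Figure D5:**
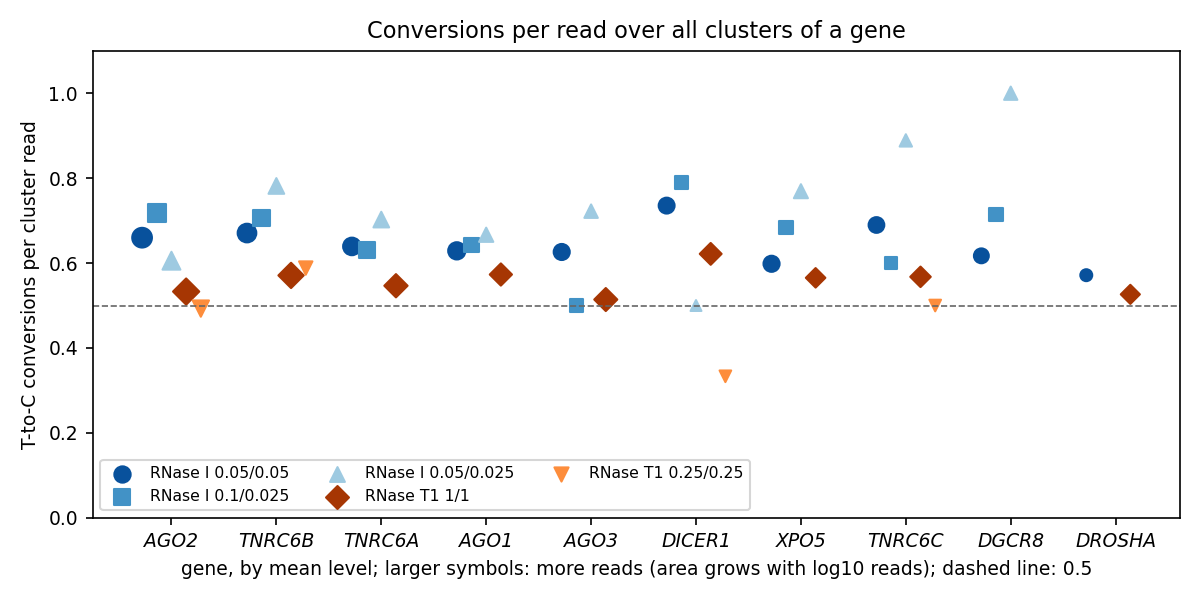
T-to-C conversions per cluster read of each gene in the 5 IGF2BP3 libraries; symbol area grows with log10 reads and the dashed line is 0.5. The RNase T1 1/1 diamonds lie below the RNase I 0.05/0.05 circles in all 9 genes with both, and values far from the rest, such as 0.33 for DICER1 with RNase T1 0.25/0.25, rest on few reads.

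Of 35 other genes of the pathway, 25 had a cluster and 19 were targets in at least 1 library, 54.3% of those listed and 76.0% of those with a cluster, beside the 63.3% of all genes with a cluster. In all 5 libraries 11 of the 25 with a cluster were targets, beside 21.2% of all genes with a cluster. By library the counts were 16, 14, 17, 16 and 11 of these 25, beside 46.9%, 45.6%, 47.1%, 42.1% and 29.3% of all genes with a cluster. The median level of the 35, with 10 of them at 0 for lack of a cluster, was 21.9 CPM, as a mean over libraries. That of the 10 genes described here was 38.8 CPM, and that of all genes with a cluster 19.7 CPM.

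The list counts below stand beside 63.3% of all genes with a cluster, which were targets in at least 1 library. The lists also hold genes without a cluster, which that share leaves out. Among 7 cofactors of the DROSHA step, 6 were targets in some library. ADAR, which edits double-stranded RNA, had 446 to 726 CPM and KHSRP, which binds let-7 precursors, 309 to 619, and METTL1 had no cluster. Among 5 partners of export and of DICER1, 2 were targets. RAN, the GTPase of the exportins, had 353 to 899 CPM and PRKRA, a DICER1 partner, 26.7 to 33.7, while TARBP2, the other DICER1 partner, and AGO4 had no cluster. Among 7 genes of let-7 control and microRNA decay, 1 was a target, TUT4, a uridylyltransferase, at 85.5, 83.4 and 85.0 CPM with RNase I and 16.4 CPM with RNase T1 1/1. ZSWIM8, which acts in target-directed microRNA decay, had 3.81 and 7.45 CPM in the RNase I 0.05/0.05 and 0.05/0.025 libraries, and LIN28A, LIN28B, DIS3L2 and TRIM71 had no cluster. Among 16 silencing effectors, 10 were targets. PABPC1, the poly(A)-binding protein, had 2001 CPM with RNase T1 1/1 and 4872 to 9197 CPM in the others, and DDX6, a helicase of translational repression, 416 to 540. PAN2, EIF4ENIF1 and WTIP had no cluster.

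The protein-coding genes whose levels were most like those of AGO2 over the 5 libraries were MET, TRIB1 and PCDH7, with a root mean square difference in log2(CPM + 1) of 0.15, 0.18 and 0.19, among 9352 genes compared. In the RNase I 0.1/0.025 library, for example, MET had 617, TRIB1 810 and PCDH7 802 CPM, and AGO2 had 738.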

How the data were processed

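The authors extracted molecular identifiers, removed duplicates and aligned reads to GRCh38, and PARalyzer called clusters in each library separately. The submitters' processing notes name bcl2fastq 2.20.0.422, UMI-tools 1.1.1, Trimmomatic 0.30 and Bowtie 0.12.7. The deposited values are counts per cluster of reads, conversion events and non-conversion events, and the authors did not normalize them. All 603 cluster sequences on the 10 genes were identical to GRCh38, 599 lay wholly in exons of the gene, and 0 touched exons of another gene. Sequences were read with pysam 0.24.0 and samtools 1.23.1, levels, sites, coverage, motifs and intervals were computed in Python 3.11.15 (scipy 1.17.1, pandas 2.3.3, numpy 2.4.6), plots were drawn with matplotlib 3.10.9, and the steps were tested on simulated data. Features came from the canonical transcript with the 3′UTR before the coding sequence. Sites were clusters of the 5 IGF2BP3 libraries merged where they overlapped by at least 1 nt. With 1 library per condition no test between conditions was made. Genes and lists were chosen with earlier results of these data known. All 10 genes are named, and, of each list, the 2 genes with the highest mean CPM, those without a cluster, and the 3 genes most like AGO2. The same rule for DICER1 is not reported here. Alternatives changed the CPM and conversion thresholds, the exon overlap, depth, feature order, transcript choice, smallest cluster, site overlap and motif window. Depth is the sum of cluster reads, from 182448 to 2362467 in the IGF2BP3 libraries and 324 with IgG.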

Additional observations from a re-analysis of the deposited data

Results flagged for a closer look

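Signal outside the exons was looked for in the introns of the 10 genes. With RNase I 0.05/0.05 there was 1 intronic cluster, of 7 reads, and with RNase T1 1/1 there was 1, of 10 reads, both in TNRC6B. The other IGF2BP3 libraries and the IgG library had 0 reads there. With 324 cluster reads in the IgG library, this contrast with the control has little weight.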

How the results depend on the processing

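The number of target calls moved with the thresholds from 6 (RNase I 0.05/0.05), 5 (0.1/0.025), 5 (0.05/0.025), 6 (RNase T1 1/1) and 2 (0.25/0.25). For RNase I 0.05/0.05 it was 9 at 5 CPM, 8 when thinned to the smallest library, 3 at 20 CPM and 3 above 0.75 conversions per read. For RNase I 0.1/0.025 it was 9 at 5 CPM, 3 at 20 CPM, 2 with at least 20 reads in place of CPM, 2 above 0.75 and 8 when thinned to the smallest library, where a cluster of few reads passes 10 CPM. For RNase I 0.05/0.025 it was 8 at 5 CPM, 7 when thinned and 2 with at least 20 reads. With RNase T1 1/1 it was 8 at 5 CPM, 8 when thinned, 2 at 20 CPM and 2 above 0.75. With RNase T1 0.25/0.25 it was 0 with at least 20 reads, 4 above 0.25 and 1 above 0.75. With a converted share of T above 0.5 it was 0 in every library, since each T of a read then counts. With any annotated 3′UTR in place of the canonical one, chosen after seeing the data, the 3′UTR share of reads became 96.7%, 98.8%, 99.2% and 96.2% in the libraries other than RNase T1 0.25/0.25, through 56 clusters that the canonical transcript places elsewhere. Clusters extended by 10 nt held a motif in 78.7%, 80.2%, 72.0% and 68.6% of cases there. The median over clusters of conversions per read was 0.59 with RNase T1 1/1. With a reciprocal overlap of 50%, there were 447 sites, 57 with both enzymes, 38 in 3 or more libraries and 0 in all 5. Counts of broader coverage and the summed levels moved beyond counting error or 1.5 times under none of the alternatives run. No paired analysis was possible because each condition had 1 library. Among the IGF2BP3 libraries depth limits RNase T1 0.25/0.25 most, where 1 read was 5.48 CPM.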
